A study of Mus musculus with 6 samples.

Results

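Transcripts of 10 imprinted genes (H19, Igf2, Igf2r, Meg3, Rian, Mirg, Dlk1, Cdkn1c, Peg3 and Grb10) were followed in whole mouse TA (tibialis anterior) muscle after knockdown of Yap. The genes were chosen by symbol, with their difference between the groups already known, and all 10 had a row among the 13226 genes of the count table. The difference between groups is therefore given for each of them as a description, with no test. The study sequenced polyadenylated RNA from the TA muscles of male C57BL/6 mice aged 8 weeks, taken 7 days after intramuscular injection of an adeno-associated viral vector (AAV6) into each leg. In 3 animals, 1 muscle received AAV6:Yap-shRNA, which carries a short hairpin RNA against Yap, and the opposite muscle received a control vector. The sample titles name the control an empty vector and the vector field names it LacZ-shRNA, so it is called control here. Muscles of both groups thus carried the virus, and the hairpin plasmid held a CMV promoter, which is not restricted to muscle fibres. The question set by this design is which transcripts differ when Yap is reduced.

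Imprinted genes are transcribed mainly from the copy inherited from the mother or mainly from the copy inherited from the father, and they lie in clusters controlled by DNA methylated on 1 parental copy. H19 and Igf2 share such a control region and a set of enhancers, with H19 read from the maternal and Igf2 from the paternal copy. Meg3, Rian and Mirg are maternally expressed noncoding RNAs of the cluster that also holds the paternally expressed Dlk1. Many of these genes act on fetal and early postnatal growth and are reduced as tissues mature, although H19 stays abundant in adult skeletal muscle. Gene counts do not separate the parental copies, and polyadenylated gene counts do not measure mature microRNAs (miRNAs). In whole muscle, fewer cells of a type and less RNA per cell cannot be told apart.

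Yap itself is the product of Yap1 (ENSMUSG00000053110), a transcriptional co-activator that reaches DNA through TEAD factors. Its level was 71.2, 65.3 and 68.4 CPM (counts relative to the library total after TMM scaling) in control muscles 1, 2 and 3 and 32.0, 23.9 and 39.5 CPM in Yap-shRNA muscles 1, 2 and 3. The mean fell to 46.5% of control in the libraries labelled Yap-shRNA, a log2 fold change of -1.10 (standard error 0.16). The groups did not overlap, which gives p = 0.1 in a two-sided exact permutation test and is the lowest value possible for groups of 3. Adjusted over all genes, p was 0.436 in the quasi-likelihood fit of edgeR, 5.85e-07 in DESeq2, and between 5.85e-07 and 1 over all the alternatives tried.

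Library totals lay between 11987167 and 12710393 counts. Within a group, the variance between 2 libraries was 7.62 to 21.4 times that of counting noise (chi-square per degree of freedom), and no library repeated another. The first principal component, with 46.4% of the variance, had control 1 and Yap-shRNA 3 at one end and control 3 at the other, and did not separate the groups. In the quasi-likelihood fit of edgeR, 0 of 13226 genes (0%) had an adjusted p under 0.05, whereas 232 (1.75%) had an unadjusted p under 0.05 and DESeq2 and edgeR's likelihood ratio test each called 5 (0.0378%). None of the 10 imprinted genes was called by any of these tests, and 3 of them (H19, Meg3 and Mirg) were among the 232, from which nothing is read because this contrast was used to choose them. Markers of muscle fibres (Acta1, Ckm, Myh4 and 6 others) were all present and summed to between 132919 and 153245 CPM in controls, against 125984.5 to 150701 CPM after Yap-shRNA, where 8 of the 9 had a lower mean. T and B cell markers had no row (0 of 7), and 1 of 5 neutrophil markers had one.

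H19 (ENSMUSG00000000031) is a long intergenic noncoding RNA on the minus strand of chromosome 7, at chr7:142575529-142578143 of build GRCm38, with 7 annotated transcripts and 2460 exonic nucleotides. It was by far the most abundant of the 10 genes per length. The 3 control muscles had 889, 748 and 581 CPM, from 11423, 8940 and 7086 counts, and the 3 Yap-shRNA muscles had 541, 395 and 481 CPM, from 6449, 5147 and 6029 counts. Every Yap-shRNA value lay below every control value, with control 3 and Yap-shRNA 1 nearest to each other. The means were 739.3 ± 154 CPM in control and 472 ± 73.3 CPM in Yap-shRNA muscles (SD, n = 3), or 63.9% of control, and the log2 fold change was -0.65 (standard error 0.17). Control 1 held the highest value, and without it the log2 fold change was -0.49. H19 took 0.0930, 0.0725 and 0.0565% of all counts in the control libraries and 0.0538, 0.0409 and 0.0474% in the Yap-shRNA libraries. It ranked 142 of 13226 genes by mean CPM.

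An exon of H19 holds the hairpin of miR-675, at chr7:142577064-142577147 on the same strand. This is the best known product processed from H19, so its mature sequences (RefSeq, GRCm38.p6) are shown, with the seed (bases 2 to 8) in capitals.
mmu-miR-675-5p: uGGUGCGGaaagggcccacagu
mmu-miR-675-3p: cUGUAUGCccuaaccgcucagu
The arms do not share a seed, and neither arm shares one with another miRNA hosted by the 10 genes. The H19 counts give the level of the host transcript, and its miRNAs were not measured.

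**Figure D1:**
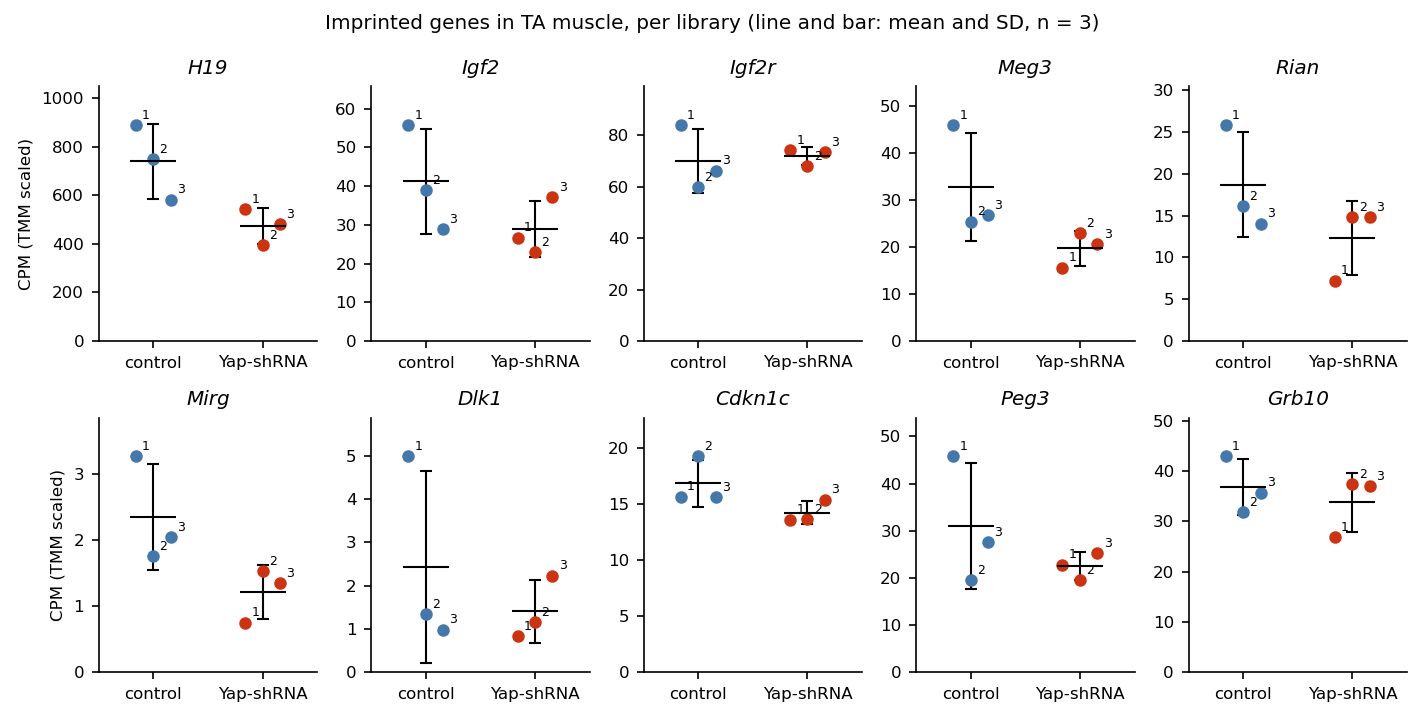
Level of each of the 10 imprinted genes per muscle, in CPM on a linear axis from 0, with control in blue and Yap-shRNA in red. Numbers beside points are muscle numbers, and the line and bars are the mean and SD (n = 3). H19, Meg3, Mirg and Cdkn1c have all 3 Yap-shRNA points below all 3 control points, and control 1 is the highest point in every panel except Cdkn1c.

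Igf2 (ENSMUSG00000048583) encodes insulin-like growth factor 2, a growth-promoting ligand, and lies at chr7:142650766-142666816 on the minus strand, near H19. It measured 55.8, 39.1 and 29.0 CPM in control and 26.7, 23.0 and 37.1 CPM in Yap-shRNA muscles. The groups overlapped, because Yap-shRNA 3 lay above control 3. The means were 41.3 ± 13.6 and 28.9 ± 7.32 CPM (SD, n = 3), and the log2 fold change was -0.52 (standard error 0.24), or -0.23 without control 1. An annotated same-strand gene (Gm49394) that has no row in the table covers 62.8% of the exonic length of Igf2, so the assignment of its reads is uncertain. The ratio of H19 to Igf2 counts was 15.9, 19.1 and 20.1 in control and 20.3, 17.2 and 12.97 in Yap-shRNA muscles, with means of 18.4 ± 2.17 and 16.8 ± 3.67 (SD, n = 3) that lay within the spread of the muscles.

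Igf2r (ENSMUSG00000023830, chr17:12682406-12769664, minus strand) encodes the receptor that carries Igf2 to lysosomes for degradation. It stood at 84.1, 59.8 and 66.2 CPM in control and 74.3, 68.0 and 73.4 CPM in Yap-shRNA muscles. All 3 Yap-shRNA values lay inside the range of the controls. Its log2 fold change was 0.04 (standard error 0.13), the only 1 of the 10 above 0, and it turned to -0.06 without control 2. Its antisense neighbour in the same cluster, the noncoding RNA Airn, measured 5.99, 5.77 and 7.06 CPM in control and 4.61, 5.53 and 5.66 CPM in Yap-shRNA muscles, with no overlap between the groups and a log2 fold change of -0.25 (standard error 0.17). Before scaling the groups overlapped, with 72 and 71 Airn counts in Yap-shRNA 2 and 3 against 69 in control 2. The spans of Igf2r and Airn overlap on opposite strands, but none of their annotated exons do. No strand setting is given, so reads of genes whose exons overlap on opposite strands cannot be told apart.

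The noncoding RNAs of the chromosome 12 cluster were lower in the Yap-shRNA means, from genes that follow each other on the plus strand. Meg3 (ENSMUSG00000021268, chr12:109541001-109571726) measured 46.0, 25.4 and 26.8 CPM in control and 15.6, 23.0 and 20.7 CPM in Yap-shRNA muscles. Controls 2 and 3 lay close above Yap-shRNA 2, and control 1 stood well clear of all other muscles. The means were 32.8 ± 11.5 and 19.7 ± 3.76 CPM (SD, n = 3), or 60.3% of control, and the log2 fold change was -0.73 (standard error 0.23), or -0.40 without control 1.

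Rian (ENSMUSG00000097451, chr12:109603940-109661716), which hosts small nucleolar RNAs, measured 25.8, 16.1 and 14.0 CPM in control and 7.22, 14.8 and 14.8 CPM in Yap-shRNA muscles. Here the groups overlapped, since Yap-shRNA 2 and 3 lay above control 3, and Yap-shRNA 1 alone was far lower. Its log2 fold change was -0.60 (standard error 0.30), or -0.29 without control 1. Mirg (ENSMUSG00000097391, chr12:109729764-109749460), the host of a miRNA cluster, had low counts, with 42, 21 and 25 in control and 9, 20 and 17 in Yap-shRNA muscles. These counts gave 3.27, 1.76 and 2.05 CPM against 0.755, 1.54 and 1.36 CPM. The groups did not overlap, but control 2 and Yap-shRNA 2 were 1 count apart before scaling. The log2 fold change of Mirg was -0.95 (standard error 0.37), the lowest of the 10, or -0.64 without control 1.

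Within these hosts, the RefSeq table placed 14 miRNA hairpins with 26 mature miRNAs in Mirg, 3 hairpins with 6 in Rian and 1 hairpin (miR-770) with 2 in Meg3, all on the host's strand. It also placed miR-1906 in Meg3, with no entry for its hairpin. Only 1 seed occurred in more than one mature miRNA of all the hosts, and the pair that shares it, both from Mirg, is shown with the seed in capitals.
mmu-miR-453: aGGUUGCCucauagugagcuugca
mmu-miR-496a-5p: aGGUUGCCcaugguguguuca
The first lies at chr12:109735669-109735692 and the second at chr12:109739132-109739152, in separate hairpins. Levels of either were not measured.

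Dlk1 (ENSMUSG00000040856, chr12:109452823-109463336) is the paternally expressed protein-coding gene of the same cluster and encodes a transmembrane protein related to Notch ligands. It had 64, 16 and 12 counts in control and 10, 15 and 28 counts in Yap-shRNA muscles, or 4.98, 1.34 and 0.985 CPM against 0.839, 1.15 and 2.23 CPM. Control 1 and then Yap-shRNA 3 were the highest, so that the groups overlapped. The log2 fold change of -0.79 (standard error 0.62) turned to 0.28 without control 1, and its sign rested on that muscle.

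Cdkn1c, Peg3 and Grb10 belong to other imprinted clusters. Cdkn1c (ENSMUSG00000037664, chr7:143458339-143461050, minus strand), a maternally expressed inhibitor of cyclin-dependent kinases, measured 15.6, 19.2 and 15.6 CPM in control and 13.6, 13.7 and 15.4 CPM in Yap-shRNA muscles. The groups did not overlap, though Yap-shRNA 3 lay just below controls 1 and 3. Before scaling they overlapped, with 193 counts in Yap-shRNA 3 against 190 in control 3. The log2 fold change of Cdkn1c was -0.24 (standard error 0.13). Cdkn1c was the only gene of the 10 that was not highest in control 1, so that leaving that muscle out gave -0.29. An antisense gene (Gm44732) covers 30.7% of its exonic length.

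Peg3 (ENSMUSG00000002265, chr7:6703892-6730431, minus strand), a paternally expressed zinc finger protein, stood at 45.8, 19.6 and 27.7 CPM in control and 22.8, 19.5 and 25.3 CPM in Yap-shRNA muscles. Apart from control 1, the 5 muscles lay between 19.5 and 27.7 CPM, and the log2 fold change of -0.46 (standard error 0.26) became -0.07 without control 1. Grb10 (ENSMUSG00000020176, chr11:11930508-12038683, minus strand), an adaptor that inhibits insulin receptor signalling, had 42.9, 31.9 and 35.7 CPM in control and 26.9, 37.4 and 36.9 CPM in Yap-shRNA muscles. Its groups overlapped, with a log2 fold change of -0.13 (standard error 0.15) that became 0.01 without Yap-shRNA 1.

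**Figure D2:**
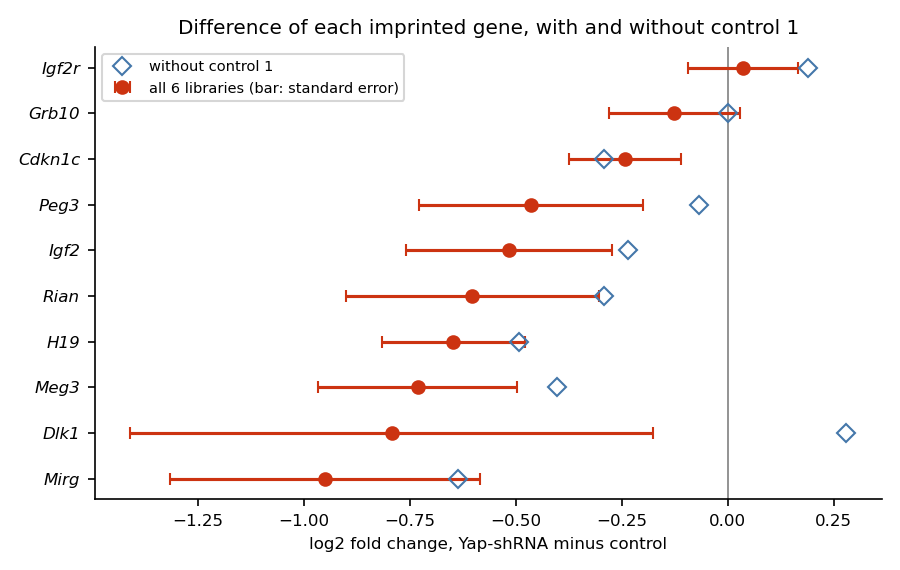
Log2 fold change (Yap-shRNA minus control) of each imprinted gene over all 6 libraries (red circle, bar: standard error) and without control 1 (blue diamond). Without control 1 Igf2r lies farther above 0 and Cdkn1c lies farther below it. All other genes are nearer to 0, among them Dlk1, which changes sign.

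Compared per length, as CPM per kb of exonic sequence, the order of the genes in control muscles was H19 (300.5 ± 62.6), Cdkn1c (8.25 ± 1.02), Igf2r (7.52 ± 1.35), Igf2 (7.21 ± 2.37), Grb10 (4.05 ± 0.616), Peg3 (2.33 ± 1.01), Meg3 (1.81 ± 0.636), Rian (1.02 ± 0.346), Dlk1 (0.430 ± 0.391) and Mirg (0.324 ± 0.110; all SD, n = 3). Cdkn1c, Igf2r and Igf2 did not differ from each other beyond their spread, nor did Peg3 and Meg3, or Dlk1 and Mirg. H19 stood above every other gene by far more than the spread in both groups, with 192 ± 29.8 CPM per kb in Yap-shRNA muscles. There the order was the same except that Igf2r (7.72 ± 0.369) came before Cdkn1c (6.97 ± 0.499).

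Of the 10 genes, 9 had a log2 fold change below 0, and for 4 (H19, Meg3, Mirg and Cdkn1c; 40%) all Yap-shRNA values lay below all control values, against 358 of 13226 genes (2.71%) in the table. Nothing is read from this excess, because the genes were picked with this contrast known. Their median log2 fold change was -0.56, beside a median of -0.00 over all genes, whose 5th to 95th percentiles ran from -0.31 to 0.33. Leaving out control 1 moved the median of the 10 genes to -0.26, with 8 below 0 and the same 4 genes not overlapping, against 12% of all genes that did not overlap in that direction once 1 control was left out.

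The muscles that set the extremes were few. Control 1 was the highest library in 9 of the 10 genes (90%), against 22.1% of all genes, and Yap-shRNA 1 was the lowest in 6 (60%), against 12.2%. Nothing is read from these excesses. The genes were picked with this contrast known, which favours a control muscle as the highest and a Yap-shRNA muscle as the lowest. The 10 genes had a median biological coefficient of variation of 20.6% against 14.5% for all genes, and 7 of the 10 lay above that median. For the 43 other imprinted genes in the table the median was 14.4%, with 21 above that of all genes. Of the 10, Cdkn1c (12.0%) and Igf2r (12.2%) were the steadiest and Dlk1 (50.1%) the most variable. These coefficients include control 1 and were not matched for expression level. Because the 10 genes were picked with this contrast known, nothing is read from their higher median.

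**Figure D3:**
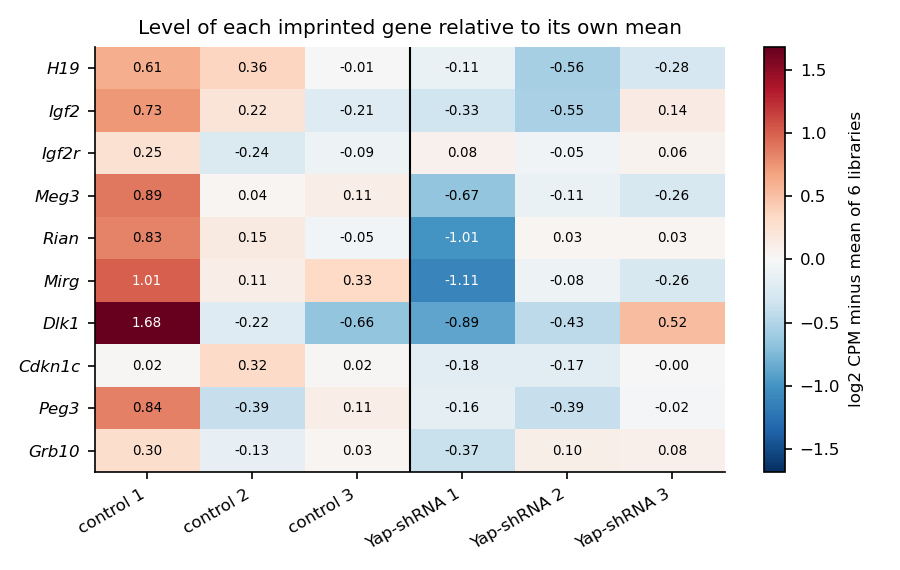
Log2 CPM of each imprinted gene minus its mean over the 6 libraries, 1 column per muscle, with red above and blue below the mean. The first column, control 1, is above the mean for all 10 genes, most for Dlk1 and least for Cdkn1c, and the lowest cells of Meg3, Rian, Mirg, Dlk1, Cdkn1c and Grb10 are in Yap-shRNA 1.

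Genes of a cluster varied together across muscles. Pearson's r was taken over deviations of log2 CPM from the group means, so that the difference between the means does not enter. It is given as a description, over 6 libraries that share depth and dissection among all genes. The choice of the genes can still enter. They were picked with this contrast known, and control 1 was the highest library in 9 of the 10. For H19 and Igf2, r was 0.79 (0.62 without control 1). Of the other genes, 4.47% had a higher r with H19 and 7.43% had a higher r with Igf2. Among the chromosome 12 genes r was 0.95 for Meg3 and Mirg (0.99 without control 1) and 0.94 for Rian and Mirg (0.91 without it). It was 0.90 for Meg3 and Rian (0.92 without it) and 0.86 for Meg3 and Dlk1 (0.47 without it). Only 0.862% of the other genes exceeded the r of Mirg with Meg3, whereas 4.09% exceeded that of Dlk1 with Meg3. Counted among the r values with Mirg and with Dlk1 instead, the shares were 0.628% and 5.25%. High values also joined genes of different chromosomes, such as Mirg with Grb10 (0.99, and 0.99 without control 1), Igf2r with Peg3 (0.98, and 0.94 without it) and Igf2 with Dlk1 (0.91, and 0.82 without it). The r of H19 with the chromosome 12 noncoding RNAs depended on control 1. It was 0.24 for Meg3, 0.08 for Rian and -0.03 for Mirg over the 6 libraries, and -0.80, -0.50 and -0.81 without control 1.

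Over the 7 pairs within a cluster the median r was 0.86, and over the 38 pairs between clusters it was 0.51. Without control 1 the first median was 0.75, with all 7 pairs above 0, and the second was 0.01, with 21 of 38 pairs above 0. Of the 7 pairs, all but H19 with Igf2 come from the chromosome 12 cluster, share its genes and are not independent. The median between clusters without control 1 covers pairs of both signs, and single pairs stayed as high as 0.99 (Mirg and Grb10). Medians of each gene's r with the 13216 genes outside the 10 lay between -0.00 and 0.06. Those genes were not picked by this contrast, so the comparison with pairs of the 10 is not like for like.

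**Figure D4:**
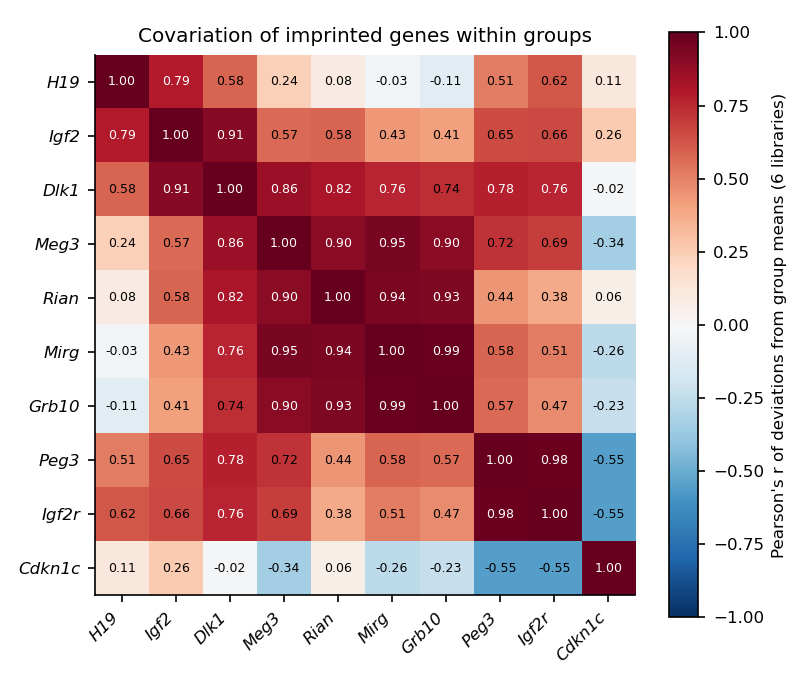
Pearson's r between imprinted genes over deviations from group means in 6 libraries, from -1 (blue) to 1 (red). Dlk1, Meg3, Rian and Mirg form a block with r from 0.76 to 0.95, which Grb10 joins, H19 pairs with Igf2 (0.79), and Cdkn1c has r from -0.55 to 0.26 with the other genes.

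Among the 7954 genes with a mean of at least 100 counts, those whose log2 CPM was most like H19 over the 6 libraries included Plekha6 (r = 0.969), Mbd2 (0.956), Unk (0.955) and Cirbp (0.950), and Igf2 had 0.847. Least like it were Gstm2-ps1 (-0.970), mt-Co1 (-0.948) and Smug1 (-0.947). Plekha6 measured 17.9, 15.2 and 14.1 CPM in control and 14.4, 12.0 and 12.9 CPM in Yap-shRNA muscles and had a log2 fold change of -0.27 (standard error 0.14). Unlike those of H19, its groups overlapped, since Yap-shRNA 1 lay above control 3. These values include the difference between groups and were selected as extremes.

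Promoters were searched for the core TEAD motif GGAATG, or CATTCC on the opposite strand, because Yap binds DNA through TEAD factors. The RefSeq table (GRCm38.p6) had 13 windows, each from 250 bases before to 50 bases after a transcript start, for 8 of the 10 genes, while H19 and Cdkn1c had no entry. The motif was found in 5 of the 13 windows (38.5%), of 3 genes, against 4811 of all 32817 windows (14.7%). The 3 matching windows of Igf2 belong to starts of 1 gene and are not independent. Shown, 5′ to 3′ on the strand of each gene with the motif in capitals, are the Igf2 window with 2 matches (218 and 112 bases before the start; chr7:142661222-142661521, minus strand), the Peg3 window (84 bases before; chr7:6730370-6730669, minus strand) and the Rian window (103 bases before; chr12:109603695-109603994, plus strand).
Igf2: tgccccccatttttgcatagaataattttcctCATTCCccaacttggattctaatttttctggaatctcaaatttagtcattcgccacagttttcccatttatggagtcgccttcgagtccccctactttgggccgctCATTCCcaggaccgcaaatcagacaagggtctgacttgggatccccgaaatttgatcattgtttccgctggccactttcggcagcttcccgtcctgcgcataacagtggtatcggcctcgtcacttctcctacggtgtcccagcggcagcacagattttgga
Peg3: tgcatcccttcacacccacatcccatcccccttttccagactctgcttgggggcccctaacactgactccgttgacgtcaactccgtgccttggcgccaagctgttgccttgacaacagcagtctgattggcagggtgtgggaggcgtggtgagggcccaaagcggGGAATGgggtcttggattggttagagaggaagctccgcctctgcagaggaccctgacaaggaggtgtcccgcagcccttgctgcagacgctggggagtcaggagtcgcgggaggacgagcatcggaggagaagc
Rian: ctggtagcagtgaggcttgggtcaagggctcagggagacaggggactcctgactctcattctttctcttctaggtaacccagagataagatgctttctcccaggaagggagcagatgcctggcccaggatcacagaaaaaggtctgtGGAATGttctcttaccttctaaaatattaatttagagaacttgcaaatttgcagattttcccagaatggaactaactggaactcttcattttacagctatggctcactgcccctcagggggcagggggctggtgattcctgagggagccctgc
Windows with at least 2 matches made up 1.36% of all windows. No match was found in the windows of Igf2r, Meg3, Mirg, Dlk1 and Grb10. A match describes the letters only, and binding was not measured.

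The other imprinted genes lay on both sides of 0. Of 67 further genes reported as imprinted in some mouse tissue, 43 had a row, 21 with a log2 fold change below 0 and 22 above it. None was called, and 4 of the 43 had an unadjusted p under 0.05 in the quasi-likelihood fit, against 232 of all 13226 genes (1.75%). The median log2 fold change of the 43 genes was 0.01, or 0.08 without control 1. Control 1 was the highest library in 11 of them (25.6%), close to the 22.1% of all genes. All Yap-shRNA values lay below all control values for 3 (6.98%, against 2.71% of all genes) and above them for 3 (6.98%, against 2.56%).

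Among the lower genes was Kcnq1ot1, the noncoding RNA of the cluster next to H19 that also holds Cdkn1c, with 3.503, 5.94 and 4.10 CPM in control and 3.19, 2.92 and 3.27 CPM in Yap-shRNA muscles and a log2 fold change of -0.53 (standard error 0.23). Besides Airn, the remaining gene was Ube3a, a ubiquitin ligase, at 50.8, 57.3 and 50.7 CPM in control and 47.7, 50.1 and 50.3 CPM in Yap-shRNA muscles, a small difference of -0.10 (standard error 0.09) on the log2 scale. Before scaling its groups overlapped, with 652 and 631 counts in Yap-shRNA 2 and 3 against 618 in control 3. Higher genes were Ampd3, an AMP deaminase (9.81, 6.61 and 7.80 CPM against 10.7, 11.4 and 10.8 CPM), Gnas, the locus of a stimulatory G protein subunit (8.64, 6.77 and 8.94 CPM against 11.5, 10.5 and 11 CPM), and Blcap (28.9, 30.9 and 30.3 CPM against 36.8, 37.1 and 32.2 CPM). Their log2 fold changes were 0.44 (standard error 0.17), 0.44 (0.15) and 0.24 (0.10). Exons of Gnas and Ube3a, and a smaller part of those of Ampd3 and Kcnq1ot1, overlap antisense genes, so reads there are uncertain.

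The most abundant of the 43 genes per length had like levels in both groups. Nap1l4, a histone chaperone, went from 72.2 ± 5.24 to 70.3 ± 2.73 CPM per kb, Cd81, a tetraspanin, from 39.6 ± 2.74 to 39.8 ± 1.84, Slc38a4, an amino acid transporter, from 29.5 ± 2.11 to 26.3 ± 3.43, and Snrpn, a splicing protein, from 13.4 ± 1.15 to 12.6 ± 0.975 (SD, n = 3). Dcn, the matrix proteoglycan decorin, stood at 57.6 ± 13.3 and 66.3 ± 15.6 CPM per kb. In all 5 the difference was within the spread of the muscles.

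**Figure D5:**
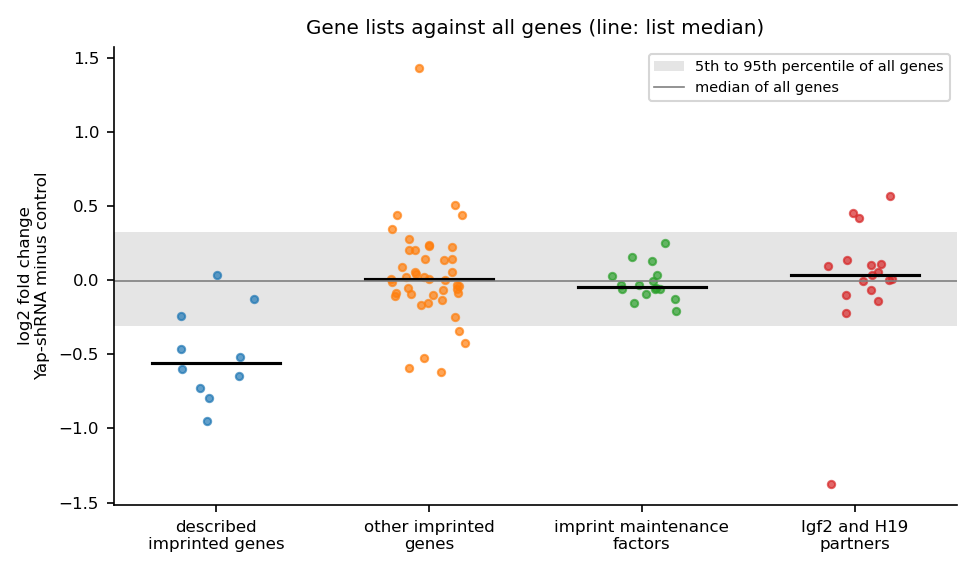
Log2 fold change (Yap-shRNA minus control) of each gene in 4 lists, with the list median as a black line and the 5th to 95th percentile of all 13226 genes in grey. The median of the 10 described genes is -0.56, chosen with this contrast known, and the medians of the 43 other imprinted genes (0.01), 16 imprint maintenance factors (-0.04) and 17 Igf2 and H19 partners (0.03) lie near 0.

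Factors that keep imprints, such as the insulator protein Ctcf, the maintenance methyltransferase Dnmt1 and the corepressor Trim28, were measured for 16 of 19 listed genes (Zfp57, Uhrf1 and Zfp42 had no row). None was called by edgeR, which called 0 of all 13226 genes. An unadjusted p under 0.05 in the same fit was found for 0, against 1.75% of all genes. None had groups without overlap, against 2.71% (lower) and 2.56% (higher) of all genes. Nothing is read from these counts, since such shares lead to few or no genes in a list of 16. The log2 fold changes ran from -0.21 (Tet2) to 0.25 (Zfp445), with a median of -0.04. Of the 16, 11 were below 0 (68.75%, against 51.1% of all genes). Without control 1, 6 were below 0, the median was 0.02 and Zfp445 stood at 1.09. Ctcf stood at 33.4 ± 2.60 CPM in control and 34.1 ± 0.975 CPM in Yap-shRNA muscles, Trim28 at 61.0 ± 4.10 and 58.6 ± 7.56, and Dnmt1 at 12.2 ± 2.44 and 12.5 ± 1.83 (SD, n = 3).

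Partners of Igf2 and H19, which include Igf receptors, Igf-binding proteins and RNA-binding proteins, were measured for 17 of 20 genes (Igf2bp1, Igf2bp3 and Igfbp1 had no row). None was called by edgeR, which called 0 of all 13226 genes. An unadjusted p under 0.05 in the same fit was found for 0, against 1.75% of all genes. None had groups without overlap, against 2.71% (lower) and 2.56% (higher) of all genes. Nothing is read from these counts, since such shares lead to few or no genes in a list of 17. Of the 17, 6 were below 0 (35.29%, against 51.1% of all genes) and 11 above. Their median log2 fold change was 0.03, or 0.11 without control 1. The signalling receptor Igf1r measured 12.4 ± 3.03 CPM in control and 13.4 ± 1.23 CPM in Yap-shRNA muscles, and the abundant binding protein Igfbp5 measured 696 ± 102 and 698.1 ± 60.2 CPM (SD, n = 3). Igfbp2, with the lowest log2 fold change of -1.38, had a standard error of 1.01.

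Markers of other cells in the dissected muscle were unequal between muscles. Summed fibroblast markers (9 of 9 in the table, 8 with a higher Yap-shRNA mean) reached 2276, 1302 and 1106 CPM in control and 1229, 1350.4 and 2705 CPM in Yap-shRNA muscles. Tendon markers (5 of 6 in the table, 4 with a lower Yap-shRNA mean) reached 639, 174 and 126 CPM in control and 169, 145 and 529 CPM in Yap-shRNA muscles. Both sums were highest in control 1 and Yap-shRNA 3, the muscles in which Dlk1 was also highest, and neither differed between groups beyond the spread. This was not particular to fibroblast and tendon markers. Control 1 and Yap-shRNA 3 were also highest for satellite cell and myoblast (248 and 264 CPM), macrophage (236 and 222 CPM) and adipocyte markers (26.9 and 95.3 CPM). They were not for muscle fibre, pericyte, endothelial, Schwann cell, liver and erythroid markers. The part of these cells in the results was not tested.

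Satellite cell and myoblast markers (11 of 13 in the table) summed to 202 to 248 CPM in control and 194 to 264 CPM in Yap-shRNA muscles. Pericyte and smooth muscle markers (7 of 7, 6 of them lower) ranged from 776 to 916 CPM in control and from 705 to 807 CPM in Yap-shRNA muscles, and endothelial markers (7 of 7) from 399.5 to 437 and from 399.5 to 439.5 CPM. Macrophage markers (10 of 10, all with a higher Yap-shRNA mean) reached 100.4 to 236 CPM in control and 172 to 222 CPM in Yap-shRNA muscles, and adipocyte markers (6 of 6, all higher) 14.5 to 26.9 and 17.3 to 95.3 CPM. Liver transcripts (8 of 8, all lower) summed to 1.09, 53.1 and 452 CPM in control and 15.4, 39.3 and 0.479 CPM in Yap-shRNA muscles. Schwann cell markers ranged from 97.5 to 164 CPM in control and 121 to 149 CPM in Yap-shRNA muscles, and erythroid markers (5 of 5, all higher) from 120 to 203 and from 101 to 242.5 CPM. None of these sums separated the groups, and their part in the levels of the imprinted genes was not tested.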

How the data were processed

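Polyadenylated RNA of 6 TA muscles was sequenced by the authors, who deposited raw read counts per gene with no normalisation. The aligner, counter and strand setting are not given in the sources used here. The submitters' processing notes name bcl2fastq 2.20.0.422 and build GRCm38. No gene had fewer than 60 reads in all, so low genes were already absent. All columns matched a sample by name.

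Library sizes were normalised by TMM, and group was the single term of a quasi-likelihood fit in edgeR 4.0.16 (R 4.3.3), with Benjamini-Hochberg adjustment over 13226 genes and a threshold of 0.05. Each standard error is the size of the log2 fold change over the root of its F statistic. The analysis was tested on simulated data, with independent libraries and changed genes at larger fold changes than that of H19. That test does not cover smaller differences or muscles paired within animals. Log2 CPM for correlations used a prior count of 2. Positions and exonic lengths came from GENCODE M21 (13204 genes matched).

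The genes described, the gene and marker lists and the rule for named genes were chosen with earlier results of these data known. Named are the 10 genes, Yap1, of the other imprinted genes the 5 highest per kb and up to 5 lower and 5 higher without overlap, likewise maintenance factors and partners, the 5 genes most and the 3 least like H19 (of which 1 is not reported here), and marker lists. Genes named outside that rule (the lowest and highest of a list, Ctcf, Trim28, Dnmt1, Igf1r and Igfbp5) were picked after their values were seen. Alternatives were DESeq2 1.42.0, the likelihood ratio test, limma-voom (limma 3.58.1), upper-quartile scaling, a filter of at least 10 counts in every sample, a prior count of 0.5, a replicate block and leaving out each muscle. The newer quasi-likelihood method of edgeR was added after seeing the data. P-values measure the spread between muscles of 3 animals.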

Additional observations from a re-analysis of the deposited data

How the results depend on the processing

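H19 kept a negative log2 fold change under all 13 alternatives, from -0.79 to -0.49, as did Igf2, Meg3, Rian, Cdkn1c and Peg3 under 13 and Mirg under 12. Dlk1 turned to 0.28 without control 1, Igf2r to negative values (lowest -0.06) without control 2 or control 3, and Grb10 to 0.01 without Yap-shRNA 1. The median of the 10 genes ranged from -0.74 to -0.26 when a muscle was left out, lowest without control 3 and nearest 0 without control 1. Their median covariation of 0.58 ranged from 0.054 to 0.80 when a muscle was left out, at 0.054 without control 1, 0.73 without Yap-shRNA 2 and 0.80 without Yap-shRNA 1. DESeq2 called 5 genes (Ccl2, Hspb7, Mir155hg, Rrad and Yap1), and the likelihood ratio test called 5 (Actc1 in place of Hspb7). Leaving out a muscle gave 0 to 1 calls, the 1 being Mir155hg without Yap-shRNA 3. Yap1 was called by DESeq2 (log2 fold change -1.10, adjusted p 5.85e-07) and by the likelihood ratio test (-1.10, 2.22e-06), and was -1.29 to -0.93 when a muscle was left out. No imprinted gene was called under any alternative. The causes were not tested.

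The labels do not say whether a replicate number marks an animal, and muscles of the same number did not all deviate together (r of -0.07, 0.20 and -0.32 for numbers 1, 2 and 3), so the pairing within animals is not known. With a replicate block the H19 log2 fold change was -0.64, that of Yap1 was -1.13 (adjusted p 0.105), the median of the 10 genes was -0.54, and 0 genes were called. The filter removed Mirg, so it has no value there. Mirg and Dlk1, with 9 to 64 counts a library, are limited by depth.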

Other observations

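Of the 43 other imprinted genes, 11 (25.6%) were highest in control 1, against 22.1% of all genes, and values of 4 of them follow. Zim1, a zinc finger gene of the Peg3 cluster, measured 9.26, 3.43 and 6.73 CPM in control and 5.54, 5.22 and 4.63 CPM in Yap-shRNA muscles. Plagl1, a zinc finger transcription factor, measured 4.90, 1.51 and 2.63 CPM in control and 2.10, 1.84 and 2.07 CPM in Yap-shRNA muscles. Mest measured 7.32, 3.26 and 3.12 CPM against 3.02, 2.53 and 4.71 CPM, and Zdbf2 5.22, 2.51 and 1.72 CPM against 2.18, 2.23 and 4.23 CPM. Without control 1 their log2 fold changes were 0.01 (Zim1), -0.05 (Plagl1), 0.10 (Mest) and 0.44 (Zdbf2). Nnat, highest elsewhere, stood at 6.62 CPM in Yap-shRNA 3 and at no more than 1.71 CPM in any other muscle. These genes were picked after their values were seen.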
